A study of Mus musculus with 12 samples.

Results

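The question was whether epithelial loss of Synbindin changes how colon tumours differ from the tissue beside them. It was read from all 12 of the 12 RNA-seq libraries of the series, as the tumour minus adjacent difference in mice with the deletion minus the same difference in control mice. This quantity is called the interaction below. Above 0, a gene's tumour minus adjacent difference is higher with the deletion, and below 0 it is lower. Mice were C57BL/6, in a colitis-associated cancer model, and the 4 groups held 3 libraries each. The control mice carried the floxed Synbindin allele (Synbindinflox, here flox), and the deleted mice lacked it in intestinal epithelial cells (SynbindindeltaIEC, here ΔIEC). Adjacent libraries are named FA1 to FA3 (flox) and DA1 to DA3 (ΔIEC), and tumour libraries FT1 to FT3 and DT1 to DT3, with the replicate number of the label. The driver of the deletion, the agents that induced the tumours, the ages and whether replicates were separate animals remain unstated in the labels.

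Synbindin is the product of Trappc4, a shared subunit of the TRAPP complexes. These complexes tether vesicles that leave the endoplasmic reticulum and activate Rab GTPases for traffic to and through the Golgi, and Synbindin has also been described as a protein that helps place ERK kinase at the Golgi. Mouse tumours of colitis-associated cancer typically carry an active Wnt pathway, lose the genes of mature absorptive and goblet cells, and hold many inflammatory cells. The deletion acts in the epithelium, whereas each library was made from dissected tissue of mixed cells.

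Values are FPKM, fragments per length of transcript and per total of fragments, summed over the transcripts of a gene. Differences were taken between values of log2(FPKM + 1), so that a gene with low FPKM shows less than its full change. Depth is unknown because FPKM carries no count. Between 14757 and 15893 genes reached an FPKM of 1 in a library, and 16970 entered the test. Correlations between libraries of a group ran from 0.912 to 0.962. The epithelial adhesion molecule Epcam was at 290.2 to 637 FPKM in every library. The leukocyte gene Ptprc (12.7 to 83.9 FPKM) and the smooth muscle genes Des (0.729 to 28.1) and Myh11 (0.994 to 26.8) were also present, so the libraries did not hold epithelium alone, although the series title describes scraped epithelium. Y-linked genes were detected, with Xist near 0, in FA3, DA1, DA3, FT3, DT1 and DT3, and the reverse held in the other 6 libraries. The 5 description codes that occur in both tissues (X403, X408 and X410 in flox, X405 and X414 in ΔIEC) matched in this respect, and DA1 and DT1 carried codes that occur in 1 tissue only.

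Trappc4 (ENSMUSG00000032112, GRCm38 chromosome 9, 44403698 to 44407600, minus strand) checks the labels. Its FPKM was 16.8, 17.0 and 17.3 in FA1 to FA3, next to 18.7, 17.5 and 20.9 in FT1 to FT3. It was 10.2, 12.6 and 10.4 in DA1 to DA3 and 12.7, 11.4 and 9.91 in DT1 to DT3. Every ΔIEC library lay below every flox library, in both tissues. The gene's transcript remained at a level that does not tell epithelial from other cells. The tumour minus adjacent difference was 0.15 in flox (limma adjusted p = 0.34) and 0.03 in ΔIEC (adjusted p = 0.855). Once the protein-coding genes of every library summed to the same value, Trappc4 rose in flox by 0.55 (limma adjusted p = 0.0105) and differed in ΔIEC by 0.30 (adjusted p = 0.121). On the deposited scale the interaction was -0.12 (SE 0.163, 95% interval -0.48 to 0.25). It was -0.24 with protein-coding genes rescaled. By interaction p, Trappc4 ranked 7939 among the 16970 genes.

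The tumours of both genotypes differed from adjacent tissue in many genes, and for most of them in the same direction. In flox, 6163 genes (36.3%) passed the test, 2817 higher (16.6%) and 3346 lower (19.7%) in tumours. In ΔIEC, 4981 genes (29.4%) passed, 2357 higher (13.9%) and 2624 lower (15.5%). A total of 4104 genes passed in both, which is 66.6% of the flox calls and 82.4% of the ΔIEC calls. Of these, 1873 rose and 2228 fell in both genotypes. The remaining 3 had opposite signs: the pseudogene Gm13433, the small nucleolar RNA Gm22362 and the small RNA Gm25082, named here after their values were seen, whose interactions had adjusted p near 1.

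The 2 tumour differences share no library, and across the 16970 genes they correlated with Pearson's r = 0.872 and Spearman's rho = 0.850. Genes are not independent replicates, so these values describe the plot of the differences and carry no p. The median absolute difference was 0.41 in flox and 0.37 in ΔIEC. Among the 2059 genes called in flox alone, 2000 (97.1%) had the same sign in ΔIEC, and among the 877 called in ΔIEC alone, 839 (95.7%) had the same sign in flox. A call in 1 genotype alone is not a difference between genotypes, which only the interaction tests.

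**Figure D1:**
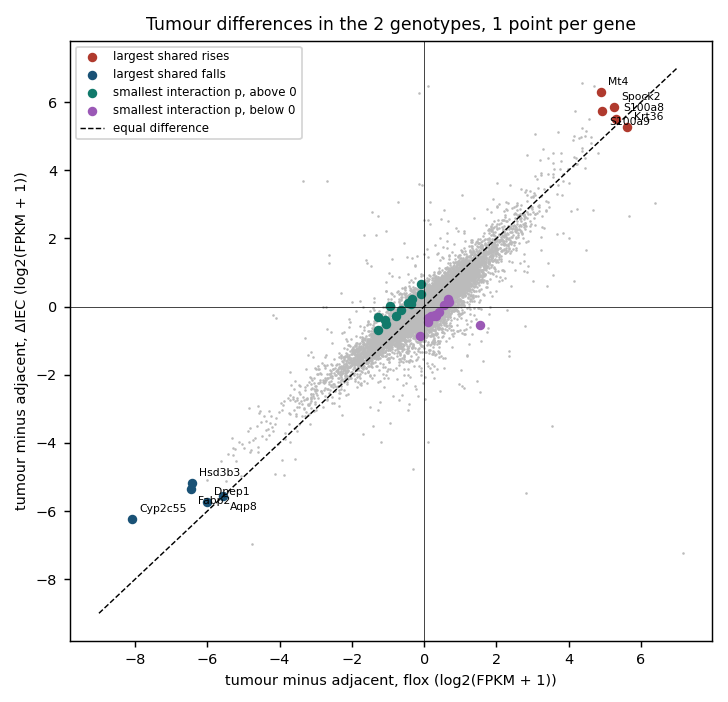
Tumour minus adjacent difference of each of the 16970 tested genes in flox (horizontal) and ΔIEC (vertical) mice, both in log2(FPKM + 1). Each grey point is a gene, the dashed line marks equal differences, and coloured points are the genes with the largest shared rises and falls and the smallest interaction p in each direction; the points follow the line with r = 0.872.

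The counts of rises and falls depend on what the libraries are scaled to. After each library was divided by its protein-coding total (protein-coding genes rescaled), the all-gene median moved by 0.34 in flox, 0.24 in ΔIEC and -0.10 in the interaction. The split became 6254 higher and 1770 lower in flox and 4320 higher and 1496 lower in ΔIEC. With quantile normalization it was 3091 and 2982 in flox and 2756 and 2387 in ΔIEC, and with median centring 2465 and 3645 in flox and 2398 and 2496 in ΔIEC. Directions below are on the deposited scale unless stated. Among 98 genes chosen by rule, of which 61 were called in flox and 43 in ΔIEC, rescaling ended 9 flox calls and 8 ΔIEC calls and gave 16 and 8 that the deposited scale did not. The flox calls that ended were Ola1, Rpl7a, Vti1b, Ndufa12, Sar1b, Rab1a, Canx, mt-Nd1 and mt-Nd2, and the ΔIEC calls Cox6b1, Edf1, Rogdi, Cdan1, Sec23a, Ern1, Spink4 and Hoxb9. Quantile normalization ended the same 9 flox calls and those of E2f1, mt-Cytb, Krt5 and Esam, and the ΔIEC calls of Edf1, Ern1 and Spink4. Median centring ended the flox calls of Rgl2 and Esam and the ΔIEC calls of Edf1 and Ern1.

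The largest shared rises belonged to neutrophil calprotectin, a keratin, a matrix proteoglycan and a metallothionein. They were chosen for being called in both genotypes, so their values are a description. S100a8, a subunit of calprotectin, was at 1.24, 2.29 and 1.16 FPKM in FA1 to FA3 and 102, 55.7 and 170.4 in FT1 to FT3. In ΔIEC it was at 0.606, 0.877 and 2.90 FPKM in DA1 to DA3 and 255, 61.1 and 70.1 in DT1 to DT3. Tumours lay above adjacent tissue without overlap in both genotypes, with differences of 5.31 and 5.52 and an interaction of 0.21 (SE 0.819). S100a9, the other subunit, differed by 4.92 in flox and 5.74 in ΔIEC. The hair-type keratin Krt36 differed by 5.61 and 5.27, the proteoglycan Spock2 by 5.25 and 5.85, and the metallothionein Mt4 by 4.88 and 6.28.

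The largest shared falls belonged to enzymes and transporters of mature colonocytes. Cyp2c55, a cytochrome P450 of the colon, was at 71.6, 1074 and 1702 FPKM in FA1 to FA3 and 0.596, 1.49 and 0.678 in FT1 to FT3. In ΔIEC it was at 1038, 129.8 and 25.9 FPKM in DA1 to DA3 and 0.789, 0.836 and 1.56 in DT1 to DT3. The tumours were alike, and the adjacent libraries of a genotype differed from each other far more than the tumours did. The differences were -8.08 and -6.24, and the interaction was 1.84 with a 95% interval from -2.36 to 6.03. The steroid enzyme Hsd3b3 (-6.43 in flox, -5.17 in ΔIEC), the fatty acid binding protein Fabp2 (-6.46 and -5.36), the peptidase Dpep1 (-6.02 and -5.74) and the water channel Aqp8 (-5.57 and -5.55) fell in both genotypes. Across these 10 genes the interaction SE ran from 0.766 (S100a9) to 1.88 (Cyp2c55), so the data place no narrow bound on whether the deletion altered their size. The interaction sign of S100a8, Krt36, Spock2, Dpep1, Fabp2 and Aqp8 turned under at least 1 alternative.

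No gene passed the interaction test: limma called 0 of 16970 genes (0%), with a smallest adjusted p of 0.9998. At an unadjusted p below 0.05 there were 448 genes (2.64%), where 5% of all genes would be 848.5, 270 of them above 0 and 178 below. The smallest unadjusted p was 2.08e-04. Interactions were above 0 in 8685 genes (51.2%), with a median of 0.01. The count was 0 under every alternative run except the one without FA3, where Gm22362 alone was called (interaction 7.73, adjusted p = 5.62e-04). That small nucleolar RNA was at 8.65 and 27.1 FPKM in FA1 and FA2, 0 in FA3, all DA and all FT libraries, and 11.2, 13.2 and 11.3 in DT1 to DT3. Short transcripts are poorly measured in such libraries.

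A count of 0 does not show the interaction absent, and only the intervals bound its size. The median SE of an interaction was 0.27, against 0.19 for the difference within a genotype, because it combines 4 group means. The median 95% interval reached 0.60 to each side of the estimate. For 10985 genes (64.7%) the whole interval lay within 1 log2 unit of 0. The estimate lay beyond 1 log2 unit in 490 genes (182 above 0, 308 below), none of which passed the adjusted test. In bulk tissue, fewer cells of a type and less RNA per cell cannot be told apart for any of the genes described here.

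The 12 genes with the smallest p above 0 included 4 subunits of the respiratory chain and ATP synthase, and none passed (adjusted p = 0.9998 each). They were chosen by this p among genes with a group mean of at least 5 FPKM, so their values are given as a description. Atp5k encodes a small membrane subunit of the ATP synthase of mitochondria and was at 93.7, 81.3 and 68.3 FPKM in FA1 to FA3 and 34.7, 32.0 and 31.5 in FT1 to FT3. In ΔIEC it was at 65.0, 71.1 and 63.7 FPKM in DA1 to DA3 and 66.7, 45.3 and 51.1 in DT1 to DT3. Flox tumours lay below flox adjacent tissue without overlap, whereas the ΔIEC groups overlapped, through DT1 alone. Atp5k fell by 1.27 in flox and differed by -0.31 in ΔIEC (adjusted p = 0.154), an interaction of 0.97 (SE 0.215, interval 0.49 to 1.44, unadjusted p = 0.00106). Within codes the difference was -1.41, -1.32 and -1.09 in X403, X408 and X410 and -0.64 and -0.31 in X405 and X414.

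Cox6b1, a subunit of cytochrome c oxidase, fell in both genotypes but by different estimates. It was at 413.8, 487.3 and 426 FPKM in FA1 to FA3 and 210.5, 202 and 223 in FT1 to FT3. In ΔIEC it was at 400.7, 353 and 376 FPKM in DA1 to DA3 and 270.6, 256 and 270.2 in DT1 to DT3. The tumour differences were -1.06 and -0.50, and no ΔIEC tumour was as low as a flox tumour. Ndufb10 belongs to complex I and was at 77.4, 83.7 and 74.4 FPKM in FA1 to FA3 and 30.7, 31.9 and 32.6 in FT1 to FT3. It was at 70.8, 72.0 and 61.0 FPKM in DA1 to DA3 and 40.4, 38.2 and 47.1 in DT1 to DT3, and fell by 1.28 in flox and 0.69 in ΔIEC. Another complex I subunit, Ndufa12, had differences of -0.63 and -0.11, the second of which did not pass (adjusted p = 0.485).

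Ola1, an ATPase of the Obg family, and Ccdc59 had estimates of opposite sign in the genotypes on the deposited scale, but of the same sign with protein-coding genes rescaled (0.09 and 0.52 for Ola1, 0.29 and 0.93 for Ccdc59). Ola1 was at 50.3, 51.8 and 53.9 FPKM in FA1 to FA3 and 43.2, 41.6 and 39.3 in FT1 to FT3, and fell by 0.32 in flox. It was at 46.6, 42.6 and 38.1 FPKM in DA1 to DA3 and 51.7, 49.6 and 48.7 in DT1 to DT3, a difference of 0.23 that did not pass (adjusted p = 0.0782). Neither pair of groups overlapped. Ccdc59 was at 11.7, 11.2 and 12.4 FPKM in FA1 to FA3 and 9.99, 9.54 and 13.6 in FT1 to FT3, a difference of -0.10. It was at 8.57, 8.13 and 8.07 FPKM in DA1 to DA3 and 15.4, 12.8 and 12.7 in DT1 to DT3, and rose by 0.66 in ΔIEC. The flox groups overlapped and the ΔIEC groups did not.

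The others had mixed roles. Rpl7a, a protein of the large ribosomal subunit, differed by -0.38 in flox and 0.06 in ΔIEC (interaction 0.44, interval 0.18 to 0.70). Btf3, of the complex that binds nascent polypeptides, differed by -0.08 and 0.36. With protein-coding genes rescaled, Btf3 rose in both genotypes (0.34 and 0.65) and Rpl7a differed by 0.04 and 0.36. With quantile normalization the interaction was 0.21 for Btf3 and 0.19 for Rpl7a. Edf1, a transcription coactivator, fell in both genotypes, by 1.09 and 0.39. The SNARE protein Vti1b, which acts in vesicle fusion, differed by -0.46 and 0.11 (interaction 0.57, interval 0.21 to 0.93), and Fam213b by -0.95 and 0.02. Genes such as Rpl7a and Btf3 have processed copies elsewhere in the genome, and how the deposited values divide reads among them is unstated. Of Trappc4 and the 24 genes with the smallest p, 9 overlap a protein-coding neighbour, among them Cdan1 and Adnp on the same strand. Trappc4 itself overlaps the ribosomal protein gene Rps25 on the other strand. Whether reads of neighbours entered these values was not tested.

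The 12 genes with the smallest p below 0 shared no single role. Helq, a DNA helicase, was at 4.76, 5.01 and 3.88 FPKM in FA1 to FA3 and 6.14, 5.95 and 5.54 in FT1 to FT3. In ΔIEC it was at 7.14, 7.86 and 6.80 FPKM in DA1 to DA3 and 5.76, 5.66 and 6.60 in DT1 to DT3. The differences were 0.31 and -0.24, neither of which passed, and the interaction was -0.55 (SE 0.164, interval -0.91 to -0.19). All DA libraries lay above all FA libraries, the FA libraries lay below FT and the DA libraries above DT, and the tumour groups overlapped. With protein-coding genes rescaled, Helq rose in flox, by 0.67 (limma adjusted p = 0.00362). Cdan1, named for congenital dyserythropoietic anaemia, was at 3.58, 3.75 and 3.62 FPKM in FA1 to FA3, lower than the 6.08, 5.92 and 5.28 in DA1 to DA3. Its tumour values were 3.94 to 4.13 FPKM in flox and 3.99 to 4.82 in ΔIEC, which overlapped.

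Another DNA repair gene, Ercc1, a subunit of a structure-specific endonuclease, rose by 0.66 in flox and differed by 0.23 in ΔIEC. Dvl3, a Dishevelled protein of Wnt signalling, differed by 0.17 and -0.28 (interaction -0.46, interval -0.79 to -0.13). The Ral exchange factor Rgl2 (0.42 and -0.16), the CREB coactivator Crtc3 (0.55 and 0.05) and the chromatin protein Adnp (0.68 and 0.14) rose in flox. None of these 3 passed in ΔIEC. Arid3b, a DNA-binding protein, and Rogdi fell in ΔIEC (-0.87 and -0.44). The differences of Prrc2a (0.23 and -0.28) and of the glycosyltransferase Large2 (0.32 and -0.27) passed in neither genotype. Mir142hg, the host transcript of the leukocyte microRNA miR-142, had the largest interaction of the 24, -2.10 (interval -3.66 to -0.54). It was at 1.06, 2.04 and 2.72 FPKM in FA1 to FA3, 4.66, 13.3 and 30.1 in DA1 to DA3, 5.65 to 8.60 in FT and 6.87 to 9.56 in DT libraries. DA2 and DA3 were also the libraries highest in B and plasma cell genes (mean log2(FPKM + 1) 3.80 and 4.58, against 1.45 to 1.98 in the other 4 adjacent libraries), and the part of these cells in that value was not tested.

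**Figure D2:**
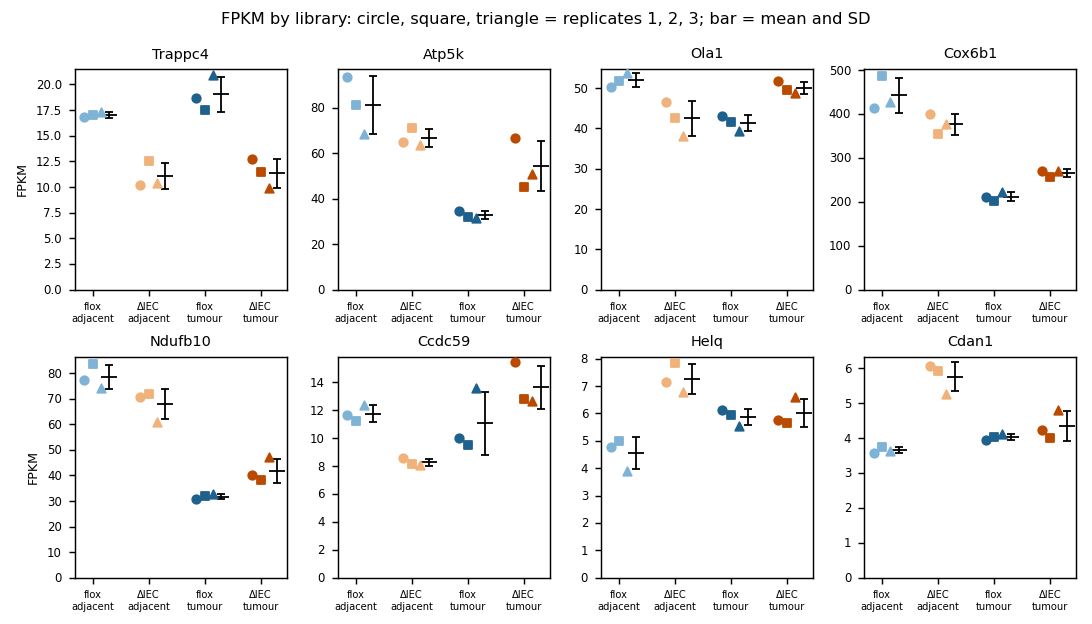
FPKM (vertical axis, from 0) of Trappc4 and 7 genes with small interaction p in the 4 groups, with circle, square and triangle for replicates 1 to 3 and a black bar for the mean and SD of 3 libraries. Atp5k lies at 31.5 to 34.7 in flox tumours and 45.3 to 66.7 in ΔIEC tumours, and Helq parts the genotypes in adjacent tissue, at 3.88 to 5.01 in flox and 6.80 to 7.86 in ΔIEC.

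The nuclear genes of respiration are commonly controlled by factors that bind short promoter motifs, among them NRF1 and the ETS family. The promoters of Atp5k and Cox6b1, from RefSeq on GRCm38.p6, are printed because these genes lead the respiratory group and hold such letters. Each runs 5′ to 3′ on the gene's minus strand from 250 bases before to 50 after the start, chr5:108434350-108434649 for Atp5k and chr7:30626065-30626364 for Cox6b1. Capitals mark the NRF1 core CGCATGCG and the ETS core CCGGAAG, the latter on the other strand, read as CTTCCGG here.
Atp5k: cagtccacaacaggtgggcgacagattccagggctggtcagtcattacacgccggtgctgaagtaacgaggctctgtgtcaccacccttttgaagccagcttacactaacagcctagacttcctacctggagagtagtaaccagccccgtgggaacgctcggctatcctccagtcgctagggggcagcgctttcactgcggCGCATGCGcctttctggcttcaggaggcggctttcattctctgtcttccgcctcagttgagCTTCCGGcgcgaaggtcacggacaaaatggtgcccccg
Cox6b1: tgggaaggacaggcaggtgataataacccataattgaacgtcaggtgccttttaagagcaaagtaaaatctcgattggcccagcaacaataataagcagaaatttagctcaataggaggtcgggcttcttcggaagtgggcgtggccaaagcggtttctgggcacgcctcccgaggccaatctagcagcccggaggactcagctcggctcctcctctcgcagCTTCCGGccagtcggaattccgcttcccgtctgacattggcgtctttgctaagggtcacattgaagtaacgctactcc

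The NRF1 core began 49 bases before the Atp5k start, and the ETS core lay 12 bases after that start and 28 before the Cox6b1 start. Both strands were searched, the motifs did not overlap, and they were chosen after the values were seen. The windows of Ndufb10 and Ndufa12, searched as well, held neither. Of 32851 RefSeq promoter windows of this length, 1.87% held the NRF1 core and 8.86% the ETS core, on either strand. A match is a run of letters and not a measured binding site.

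The nuclear-encoded respiratory chain fell in tumours of both genotypes. With protein-coding genes rescaled, 24 and 15 subunits fell, beside 1770 and 1496 of all 16970 genes. Of 28 measured subunits, 27 fell in flox (19.7% of all genes did) and 24 fell in ΔIEC (15.5% of all genes did), while Ndufa4 rose in ΔIEC. The median difference was -0.95 in flox and -0.62 in ΔIEC, against all-gene medians of -0.01 and -0.03. Interactions were above 0 in 28 of 28, beside 51.2% of all genes, with a median of 0.32 and a range from 0.13 to 0.97. An unadjusted p below 0.05 was reached by 7, beside 2.64% of all genes, and none was called. The list of 28 does not hold Cox6b1 or Ndufa12. After Atp5k and Ndufb10, the smallest p within it belonged to Cox5b, of cytochrome c oxidase, which fell by 1.48 in flox and 0.83 in ΔIEC. Subunits of a chain are co-regulated and share libraries, so the 28 are not 28 independent observations. Interactions above 0 in every member were not particular to this list. They were also found for fatty acid oxidation (23 of 23) and general epithelial genes (15 of 15, median 0.41). The same held for glycolysis (16 of 16) and cytosolic ribosomal protein genes (28 of 28).

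By library, the mean log2(FPKM + 1) of the 28 subunits was 7.09, 7.43 and 7.32 in FA1 to FA3, then 7.25, 7.05 and 7.01 in DA1 to DA3, 6.28, 6.34 and 6.42 in FT1 to FT3 and 6.57, 6.41 and 6.63 in DT1 to DT3. Adjacent groups overlapped and so did tumour groups, with FA1 beside DA2 and DA3. The median interaction stayed between 0.24 and 0.43 with any library left out, and 27 or 28 subunits remained above 0. It was 0.20 with protein-coding genes rescaled (28 above 0, where the all-gene median was -0.10) and 0.18 with quantile normalization (27 above 0).

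Transcripts of the mitochondrial genome, which encode core subunits of the same chain, had a like pattern. Of 13, 9 fell in flox (19.7% of all genes did) and 2 (mt-Co1 and mt-Nd4) in ΔIEC, a share near the 15.5% of all genes. With quantile normalization 5 and 0 fell, beside 2982 and 2387 of all 16970 genes. With protein-coding genes rescaled 5 and 1 fell, beside 1770 and 1496. The medians were -0.90 and -0.47, and the median interaction was 0.44 with 12 of 13 above 0 and none at an unadjusted p below 0.05. mt-Nd1 was at 2442, 2473 and 2165 FPKM in FA1 to FA3 and 1335, 1434 and 1563 in FT1 to FT3. In ΔIEC it was at 2785, 1566 and 1837 FPKM in DA1 to DA3 and 2416, 1493 and 1973 in DT1 to DT3, so the ΔIEC groups overlapped and the flox groups did not. The median was 0.17 without DA2 and 0.29 without DT1.

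Fatty acid oxidation fuels mature colonocytes. Of its 23 measured genes, 19 fell in flox and 15 in ΔIEC (19.7% and 15.5% of all genes did). The medians were -1.53 and -0.95. Interactions were above 0 in 23 of 23, beside 51.2% of all genes (median 0.49, range 0.14 to 1.12), with none at an unadjusted p below 0.05. The electron carrier subunit Etfb fell by 1.66 and 1.06, the acyl-CoA dehydrogenase Acadm by 1.25 and 0.76, and the reductase Decr1 by 1.53 and 0.95. The mean of the list was 5.18, 6.25 and 6.25 in FA1 to FA3, next to 5.98, 5.15 and 5.07 in DA1 to DA3, against 4.31 to 4.46 in all 6 tumours. The tumours were thus close to each other, and the adjacent libraries parted with FA1 beside DA2 and DA3 and DA1 beside FA2 and FA3. Without FA1 the median interaction was 0.73, and without DA2 0.36.

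Absorptive colonocyte genes followed the same order. Of 23, 19 fell in flox and 17 in ΔIEC (19.7% and 15.5% of all genes did), with medians of -2.86 and -2.25. Interactions were above 0 in 20 of them, beside 51.2% of all genes (median 0.56). Carbonic anhydrase Car2, which serves acid and bicarbonate transport, was at 592, 516 and 365 FPKM in FA1 to FA3 and 47.0, 50.8 and 78.5 in FT1 to FT3. It was at 427, 273 and 552 FPKM in DA1 to DA3 and 68.2, 96.6 and 88.6 in DT1 to DT3, and fell by 3.05 in flox and 2.25 in ΔIEC. The steroid dehydrogenase Hsd17b2 fell by 2.28 and 1.60, whereas the sodium channel subunit Scnn1b did not pass in either genotype (-0.29 and 0.48). The list's median was 0.38 without DA2, 0.32 without DT3 and 0.28 without both libraries of code X414.

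Detoxification enzymes had the lowest median of the 22 lists in flox, and in ΔIEC goblet cell genes were lower. Of 21, 15 fell in flox and 14 in ΔIEC (19.7% and 15.5% of all genes did), with medians of -3.12 and -2.31. Interactions were above 0 in 19 of them, beside 51.2% of all genes (median 0.87). The sulfotransferase Sult1a1 was at 187.2, 295 and 274 FPKM in FA1 to FA3 and 7.47, 6.86 and 2.68 in FT1 to FT3. It was at 187.2, 93.9 and 115 FPKM in DA1 to DA3 and 3.11, 8.70 and 16.5 in DT1 to DT3, and fell by 5.31 in flox and 3.85 in ΔIEC. The glucuronosyltransferase Ugt2b34 fell by 2.20 and 1.46, and Sult1c2 by 2.71 in flox, with -1.41 in ΔIEC not passing (adjusted p = 0.0715). The median was 1.34 without FA1, 0.55 without FA3, 0.58 without DA3 and 0.30 without both libraries of code X414.

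With all 12 libraries, goblet cell genes fell without such an offset. Of 18, 13 fell in flox and 15 in ΔIEC (19.7% and 15.5% of all genes did), with medians of -2.34 and -2.39. The gel-forming mucin Muc2 fell by 4.04 in each, with FPKM from 6649 to 27491 in flox adjacent tissue, 6927 to 30841 in ΔIEC adjacent tissue, 654 to 1492 in flox tumours and 311 to 2225 in ΔIEC tumours. The median interaction was -0.10, with 6 of 18 above 0, and it moved from -0.49 without DA3 to 0.19 without DA1. With both DA1 and DT1 left out it was 0.37, where that of the respiratory chain was 0.39. The lectin Zg16 (-4.81 and -3.56), the protease Capn9 (-2.28 and -3.18) and the secreted inhibitor Spink4 (-0.54 and -1.44) had the smallest p. Spink4 passed in ΔIEC but not in flox (adjusted p = 0.353), and its interaction of -0.90 had an interval from -2.27 to 0.47.

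**Figure D3:**
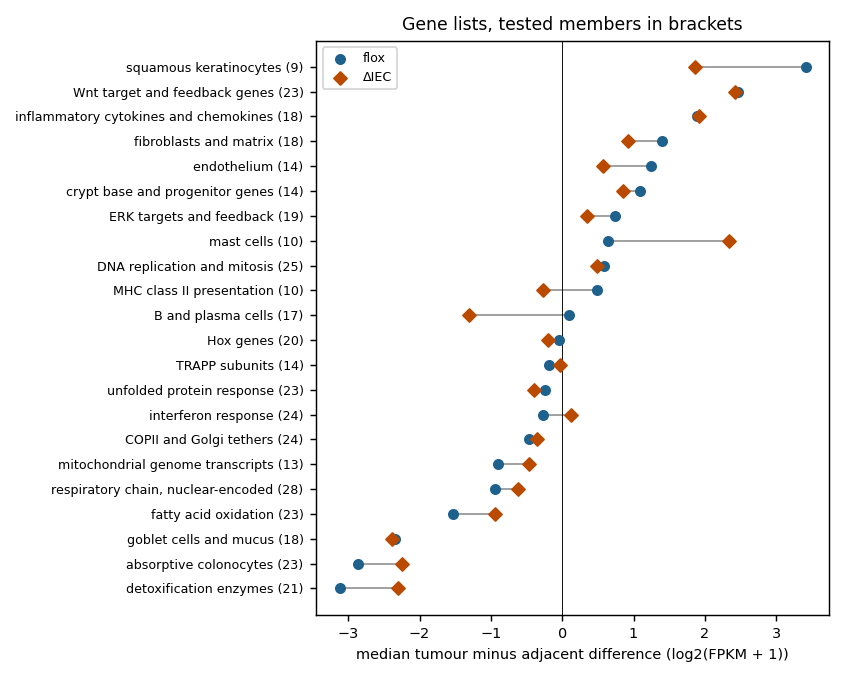
Median tumour minus adjacent difference (horizontal axis, log2(FPKM + 1)) of the tested members of 22 gene lists, with flox as circles and ΔIEC as diamonds joined by a line. The Wnt, cytokine and goblet pairs nearly coincide, and the widest gaps are for mast cells (0.64 and 2.33), squamous keratinocytes (3.42 and 1.86) and B and plasma cells (0.10 and -1.31).

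Wnt target and feedback genes rose in both genotypes. Of 23, 21 rose in flox and 20 in ΔIEC (16.6% and 13.9% of all genes did), with medians of 2.46 and 2.42. The secreted Wnt inhibitor Notum was at 3.23, 8.47 and 0.227 FPKM in FA1 to FA3 and 83.5, 58.1 and 51.1 in FT1 to FT3. It was at 0.877, 0.260 and 0.110 FPKM in DA1 to DA3 and 58.9, 47.1 and 23.3 in DT1 to DT3. The stem cell receptor Lgr5 rose by 2.78 and 2.63, and the scaffold Axin2 by 2.56 and 2.44. The median interaction was 0.02, with 12 of 23 above 0 (-0.10 and 8 with protein-coding genes rescaled), and it ran from -0.22 without FA2 to 0.31 without DT3. Mmp7, a matrix protease of tumour epithelium, had the smallest p in the list (4.36 and 6.56, interaction 2.20, interval -0.70 to 5.10), and the transcription factor Tcf7 rose by 1.99 and 1.33.

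Crypt base and progenitor genes rose in 9 of 14 members in flox and 7 in ΔIEC (16.6% and 13.9% of all genes did), and 1 fell in each. The medians were 1.09 and 0.85 and the median interaction was -0.14 (5 of 14 above 0), from -0.32 without FT1 to -0.03 without FT2. Cdca7, a cell-cycle gene of progenitors, was at 21.2, 15.6 and 22.2 FPKM in FA1 to FA3 and 29.0, 53.8 and 46.5 in FT1 to FT3. It was at 21.1, 21.2 and 22.6 FPKM in DA1 to DA3 and 29.8, 23.8 and 34.0 in DT1 to DT3. Cdca7 rose by 1.06 in flox and differed by 0.40 in ΔIEC (adjusted p = 0.192), and the interaction was -0.66 (interval -1.35 to 0.03). The matrix protein Smoc2 rose in both, by 2.32 and 1.78.

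Genes of DNA replication and mitosis rose in 8 of 25 members in flox and 5 in ΔIEC, beside 16.6% and 13.9% of all genes, with medians of 0.59 and 0.49. Their median interaction was -0.07, between -0.27 without DA1 and 0.19 without DA2. With protein-coding genes rescaled, 25 rose in flox and 14 in ΔIEC, beside 6254 and 4320 of all 16970 genes. Foxm1, a transcription factor of the G2 phase, rose by 0.65 in flox and differed by 0.02 in ΔIEC, with an interaction interval from -1.30 to 0.05.

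ERK targets and feedback genes were of interest because of the described link of Synbindin to ERK. Of 19, 10 rose in flox and 7 in ΔIEC (16.6% and 13.9% of all genes did), and none fell. The medians were 0.74 and 0.35. The phosphatase Dusp4 rose by 2.10 and 1.96 and the early response gene Ier3 by 2.21 and 2.54. The cyclin Ccnd1 was at 32.2, 30.1 and 31.8 FPKM in FA1 to FA3 and 46.8, 63.1 and 51.7 in FT1 to FT3, and at 24.3, 33.8 and 26.7 in DA1 to DA3 and 57.0, 75.9 and 48.5 in DT1 to DT3. It rose by 0.75 and 1.06 with no overlap in either genotype. The ERK phosphatase Dusp7 had the smallest p in the list. Its FPKM was 4.38, 3.66 and 2.80 in FA1 to FA3, next to 8.44, 7.76 and 5.34 in FT1 to FT3, against 5.29, 8.10 and 4.89 in DA1 to DA3 and 5.16, 6.10 and 6.52 in DT1 to DT3. It rose by 0.82 in flox and differed by -0.01 in ΔIEC, an interaction of -0.83 (interval -1.50 to -0.17, unadjusted p = 0.019) that limma did not call. The feedback inhibitor Spry1 rose by 0.46 in flox and differed by 0.27 in ΔIEC (adjusted p = 0.0888). The median interaction of the list was -0.14 with 8 of 19 above 0, and it became 0.02 without FT3 and 0.01 without DT1.

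TRAPP subunits moved little in either genotype. Of 14 measured subunits, Trappc6a, Trappc9, Trappc10 and Trappc12 fell in flox (19.7% of all genes did). In ΔIEC, Trappc9 and Trappc10 fell (15.5% of all genes did) and Trappc2 rose (13.9% did). With protein-coding genes rescaled these counts turned to 5 rises and 0 falls in flox and 4 rises and 1 fall in ΔIEC. The rises were near the share of all 16970 genes that rose on that scale, 6254 in flox and 4320 in ΔIEC. The medians were -0.18 and -0.04, and 12 interactions were above 0 (median 0.14, range -0.12 to 0.31), the exceptions being Trappc4 and Trappc9. Trappc3, which has the smallest p, was at 27.2, 32.2 and 28.6 FPKM in FA1 to FA3, then 25.2, 24.4 and 24.6 in DA1 to DA3, 29.2, 24.5 and 30.5 in FT1 to FT3 and 33.2, 29.0 and 26.6 in DT1 to DT3. The flox groups overlapped and the ΔIEC groups did not, and neither difference passed (-0.06 and 0.24), whereas both passed with protein-coding genes rescaled (0.34 and 0.53). Without DA2 the median interaction was 0.09. With protein-coding genes rescaled it was 0.03 with 8 of 14 above 0, and the tumour medians turned to 0.19 and 0.22.

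COPII coat and Golgi tether genes fell in tumours, 15 of 24 in flox and 12 in ΔIEC (19.7% and 15.5% of all genes did). The medians were -0.46 and -0.35. The tether Golgb1 fell by 1.02 and 0.90, and the coat subunit Sec24a by 0.92 and 0.93. Sar1b, the GTPase that starts coat assembly, fell by 0.59 in flox and differed by -0.16 in ΔIEC (adjusted p = 0.46, interaction 0.43, interval -0.05 to 0.91). The coat subunit Sec23a fell by 0.91 and 0.54, and Rab1a by 0.44 in flox, with -0.24 in ΔIEC. The median interaction was 0.05 with 17 of 24 above 0, but -0.07 with protein-coding genes rescaled, -0.02 with quantile normalization, and below 0 without DA3 (-0.03) or DT3 (-0.00). With protein-coding genes rescaled, 4 fell and 2 rose in flox and 5 fell and 1 rose in ΔIEC. Of all 16970 genes, 1770 fell and 6254 rose in flox on that scale, and 1496 fell and 4320 rose in ΔIEC.

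Unfolded protein response genes fell in 6 of 23 members in flox and 9 in ΔIEC, beside 19.7% and 15.5% of all genes. With protein-coding genes rescaled, 2 rose and 2 fell in flox and 3 fell in ΔIEC. Of all 16970 genes, 6254 rose and 1770 fell in flox on that scale, and 1496 fell in ΔIEC. The medians were -0.24 (0.16 with protein-coding genes rescaled) and -0.40, and the median interaction was -0.12, with 20 of 23 below 0. Calnexin (Canx), a chaperone of glycoproteins, had the smallest p in the list and an interaction above 0. It was at 169.9, 172 and 178 FPKM in FA1 to FA3 and 134, 123 and 127 in FT1 to FT3, and fell by 0.43. It was at 155, 172 and 134 FPKM in DA1 to DA3 and 153, 158 and 140.4 in DT1 to DT3, which overlapped (-0.02). The stress sensor Ern1 differed by -0.01 in flox and fell by 0.42 in ΔIEC. The plasma cell gene Derl3 was at 7.66 and 5.90 FPKM in DA2 and DA3, against 1.51 to 1.77 in the other 4 adjacent libraries. The list's median interaction was 0.09 without DA2, the library with the highest mean of the list (6.09, against 5.53 to 5.65 in the other 5 adjacent libraries).

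Inflammatory cytokine and chemokine genes rose in 14 of 18 members in each genotype (16.6% of all genes rose in flox and 13.9% in ΔIEC). The medians were 1.89 and 1.92. Cxcl1, a neutrophil chemokine, was at 0.074 to 0.774 FPKM in the flox and 0.081 to 0.705 in the ΔIEC adjacent libraries. It was at 11.0, 14.3 and 18.2 FPKM in FT1 to FT3 and 37.9, 13.3 and 33.9 in DT1 to DT3, and rose by 3.42 and 4.37 (interaction 0.95, interval -0.21 to 2.11). The tumour groups overlapped through DT2. The list's median interaction was 0.12, from -0.30 without DT1 to 0.40 without DT2.

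Interferon response genes passed the test in neither genotype, 0 of 24 in each (36.3% of all genes passed in flox and 29.4% in ΔIEC). The medians were -0.26 (0.11 with protein-coding genes rescaled, where 2 rose in each genotype) and 0.12, and the median interaction was 0.43, which became -0.27 without DA2, -0.19 without FT2 and -0.07 without FA2, and 1.08 without FT3. Irf7, a regulator of interferon genes, was at 39.1, 227 and 153 FPKM in FA1 to FA3, next to 202, 25.4 and 62.1 in DA1 to DA3, a spread within each group larger than the difference between them.

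Fibroblast and matrix genes rose in 11 of 18 members in flox and 1 in ΔIEC, beside 16.6% and 13.9% of all genes. The medians were 1.41 and 0.92, with 17 interactions below 0 (median -0.61). The collagen gene Col1a2 was at 22.1, 8.67 and 17.5 FPKM in FA1 to FA3 and 45.9, 69.8 and 41.4 in FT1 to FT3. It was at 8.90, 48.3 and 30.2 FPKM in DA1 to DA3 and 17.6, 42.3 and 62.0 in DT1 to DT3, so the ΔIEC groups overlapped. The list's mean was 2.48 in DA1 and 4.32 and 4.03 in DA2 and DA3, against 3.85, 2.58 and 3.10 in FA1 to FA3. The median interaction was -1.26 without DA1, -0.22 without DA2, -0.27 without FA2, -0.34 without DT1, -0.39 without DA3 and -0.96 without FA1. Endothelial genes rose in 9 of 14 members in flox and 1 in ΔIEC, beside the same 16.6% and 13.9% (medians 1.24 and 0.57, 13 interactions below 0, median -0.58). Pecam1, an endothelial adhesion molecule, rose by 1.41 in flox and differed by 0.61 in ΔIEC (interaction -0.81, interval -2.01 to 0.39). The endothelial median was -1.04 without DA1, -0.37 without FA2 and -0.22 without DA2.

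B and plasma cell genes and class II antigen presentation genes were, among adjacent libraries, highest in DA2 and DA3. For B and plasma cells, none of 17 passed in flox (36.3% of all genes did). Only Sdc1, also an epithelial gene, rose in ΔIEC (13.9% of all genes did). The medians were 0.10 (-0.02 with quantile normalization) and -1.31, and 16 interactions were below 0 (median -1.13). The B cell factor Pax5 was at 0.157 to 1.12 FPKM in flox adjacent tissue, 0.801, 7.17 and 19.7 in DA1 to DA3, 0.110 to 1.60 in flox tumours and 0.0858 to 2.94 in ΔIEC tumours. The median was -2.18 without DA1 and -0.64 without DA3. Class II genes passed in neither genotype, with medians of 0.49 and -0.27 (0.01 with protein-coding genes rescaled) and 10 of 10 interactions below 0 (median -0.81). Their transactivator Ciita was at 1.74 to 1.87 FPKM in flox adjacent tissue and 1.53, 5.36 and 12.9 in DA1 to DA3. The class II median was -1.62 without DA1, -1.35 without FT2, -1.28 without DT3, -0.50 without DT1, -0.37 without FT3 and -0.16 without DA3. Immunoglobulin transcripts, which plasma cells make, took a different order: 20.5% of the summed FPKM in DT3, 12.7% in DA2, 5.73% in DA3 and 6.16% in FA1. The part of these cells in the interactions of other genes was not tested.

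Mast cell genes were high in 1 ΔIEC tumour. Of 10, 2 rose and 1 (Kit) fell in flox and 5 rose and 1 (Kit) fell in ΔIEC (16.6% and 13.9% of all genes rose, 19.7% and 15.5% fell), with medians of 0.64 and 2.33 and 10 interactions above 0 (median 1.55). Cpa3, a mast cell carboxypeptidase, was at 3.46, 0.62 and 4.32 FPKM in FT1 to FT3 and 7.17, 23.3 and 2.16 in DT1 to DT3, with 0.387 to 2.86 in the 6 adjacent libraries. It rose by 2.51 in ΔIEC and differed by 0.66 in flox (interaction 1.85, interval -0.34 to 4.04). Fcer1a, of the IgE receptor, rose by 1.70 in ΔIEC and differed by 0.08 in flox. DT2 was the highest tumour, and without it the list's median fell to 0.75.

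Squamous keratinocyte genes were high in FT1 and FT2. Of 9, 7 rose in flox and 3 (Krt13, Krt14 and Krt17) in ΔIEC, beside 16.6% and 13.9% of all genes. The medians were 3.42 and 1.86, with 8 interactions below 0 (median -1.37). Krt5, a basal keratin, was at 93.8, 89.2 and 0 FPKM in FT1 to FT3 and 3.37, 0.0154 and 0.108 in DT1 to DT3, with at most 0.317 in adjacent tissue. Krt13 was at 101, 129 and 17.3 FPKM in FT1 to FT3 and 18.7, 4.78 and 11.0 in DT1 to DT3, and rose by 4.67 and 2.82 (interaction -1.85, interval -3.97 to 0.27). FT3 lay with the ΔIEC tumours for both genes. The median was -2.73 without FT3, -0.49 without FT1 and -0.83 without FT2. With log2(FPKM + 0.1) in place of log2(FPKM + 1), the median was -0.70. The colon keeps no squamous epithelium except at the anal border, and where along the colon each tumour lay is not given in the sources used here.

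Hox genes, which mark position along the colon, had 5 rises and 2 falls in each genotype among 20, where 16.6% and 13.9% of all genes rose and 19.7% and 15.5% fell. The rises included Hoxd13 (4.27 and 4.93), Hoxd12 (3.00 and 2.77) and Hoxd11 (2.80 and 3.35), and the falls were Hoxb9 and Hoxa7. The median interaction was 0.24 with 14 of 20 above 0, and it was 0.03 without FA2 and 0.46 without DA1. The distal gene Hoxb13 was at 120.5, 10.2 and 1.56 FPKM in FA1 to FA3, next to 30.1, 39.5 and 102.9 in DA1 to DA3, against 40.9 to 53.4 in all 6 tumours. Its tumours were level and its adjacent libraries were not, so its differences (1.58 and -0.08, neither of which passed) came with a wide interaction interval, from -5.07 to 1.76. How far the sampled position of adjacent tissue entered the other lists was not tested.

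**Figure D4:**
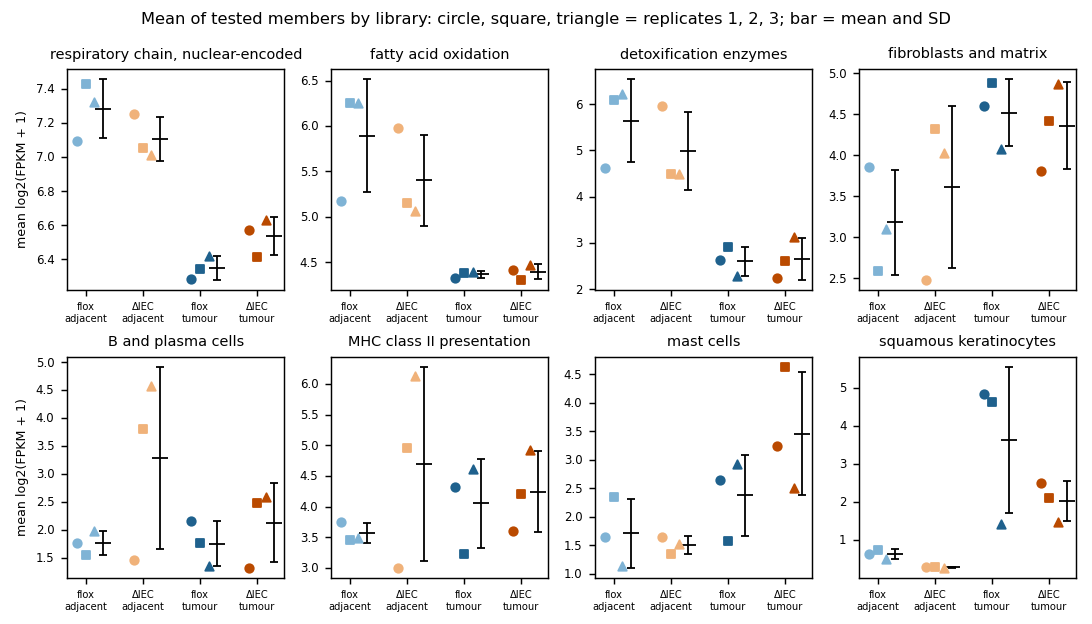
Mean log2(FPKM + 1) of the tested members of 8 lists in each library (vertical axes do not start at 0), with circle, square and triangle for replicates 1 to 3 and a black bar for the mean and SD of 3 libraries. Adjacent libraries of a genotype spread widely, with fatty acid oxidation at 5.18 in FA1 and 6.25 in FA2 and FA3, while the tumours lie between 4.31 and 4.46.

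**Figure D5:**
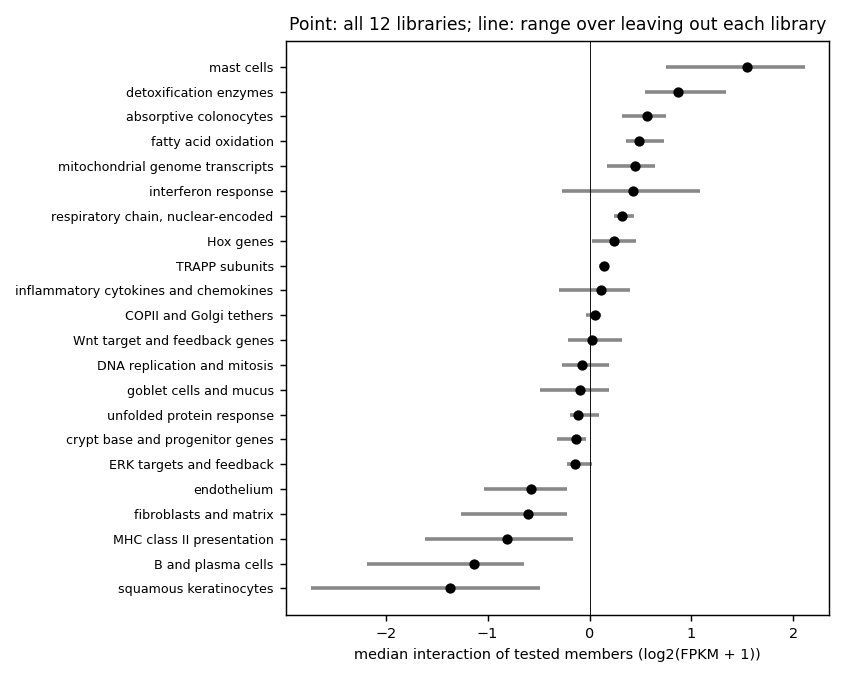
Median interaction (horizontal axis, log2(FPKM + 1)) of 22 lists with all 12 libraries (points) and its range when each library in turn is left out (lines). The respiratory chain stays between 0.24 and 0.43 and fatty acid oxidation between 0.36 and 0.73, whereas the lines of the COPII and Golgi tether, ERK, unfolded protein response, Wnt, mitosis, goblet, cytokine and interferon lists cross 0.

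Across the 22 lists, no member was called in the interaction under any alternative run. A list median above or below 0 describes these libraries, and no test of a list as a whole was made.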

How the data were processed

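RNA was sequenced from 12 mouse colon libraries, 3 in each combination of genotype and tissue, from total RNA with a strand-specific kit per the labels' protocols. The deposited table holds 1 log2 value per transcript and library, which the authors made from FPKM. Per the submitters' processing notes, FastQC, STAR 2.5 and Cuffnorm were used, in roles not stated there. The settings of the counting, including strand, and the sequencing depth were not given in the sources used here.

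Here the log2 step was undone and FPKM summed per gene through GENCODE M21 (GRCm38), which matched 95.9% of 123062 transcripts. A gene was kept when 3 or more of the 12 libraries reached an FPKM of 1. The log2(FPKM + 1) values were modelled in limma 3.58.1 under R 4.3.3 with 4 group means, trend and robust settings, and 8 residual degrees of freedom. Tests were two-sided, with Benjamini-Hochberg adjustment over 16970 genes and a threshold of 0.05. The script was tested on simulated data.

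The members and gene lists were chosen with earlier results of these data known. Named genes are Trappc4, the 12 smallest interaction p in each direction among genes with a mean of at least 5 FPKM in their highest group, the 5 largest shared rises and falls, and the 3 smallest interaction p in each described list. Gm and Rik names, small RNAs and antigen receptor segments were left out. One gene that this rule names is not reported here. Epcam, Ptprc, Des, Myh11, Muc2, Notum, Lgr5, Axin2, Dusp4, Ier3, Golgb1, Sec24a, Krt14, Krt17, Kit, Ndufa4, mt-Co1, mt-Nd4, Hoxd11 to Hoxd13, Hoxa7, Xist, Gm22362 and TRAPP subunits other than Trappc3 and Trappc4 were named after their values were seen.

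Nothing in the labels says that replicates are separate animals, so the p-values rest only on how these libraries scatter, which may be technical in part. Each group held libraries with Y-linked genes and libraries with Xist, so no group came from 1 animal alone. Description codes shared by the tissues were checked as pairs: correlations of deviations within the 5 codes were 0.05, -0.19, 0.105, 0.05 and 0.17, so they were not taken to pair the libraries. Low correlations do not show that a code is not an animal, and the sex genes matched within each of the 5. With the code as a fixed block, a fit that also leaves out DA1 and DT1, the ΔIEC count was 653. It was 1697 on the same libraries without the block, and 4981 with all 12 libraries. Alternatives changed the pseudocount, the filter, the scaling, the blocks and the libraries. Leaving out both libraries of code X414 was chosen after seeing the data.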

Additional observations from a re-analysis of the deposited data

How the results depend on the processing

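The interaction count was 0 under every alternative except without FA3, so it ranged from 0 to 1 with 1 library left out. The flox count ranged from 3891 (without FA2) to 6725 (without DA1) and the ΔIEC count from 2910 (without DT1) to 5086 (without FA1). The ΔIEC count was 653 with the replicate block by description code as a fixed term, a fit that also leaves out DA1 and DT1. Leaving out DA1 and DT1 with no block gave 1697, and a fit on the 6 ΔIEC libraries alone gave 2564. The replicate block by title number gave 0 interaction, 5387 flox and 4115 ΔIEC calls, and the code as a random block 0, 6286 and 5060. Unadjusted interaction p below 0.05 numbered from 282 (without FA2) to 1495 (without DA1). List medians moved as well without DA1 and DT1, the libraries whose codes occur in 1 tissue. Among them, the goblet median interaction went from -0.10 to 0.37 and the cytokine median from 0.12 to -0.36. The interferon median went from 0.43 to 0.83 and that of B and plasma cells from -1.13 to -1.76. The cause was not tested for any of these shifts.

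Of 98 named genes, 6 reversed the interaction sign, all of them among the largest shared rises and falls. Apart from Trappc4 and the other shared rises and falls, the rest were chosen for the smallest interaction p in a direction or a list. Such a choice favours a stable sign, although in some lists that p was large (Oas1a, limma unadjusted p = 0.528). The 6 of 98 is therefore no measure of how stable interactions are. Aqp8 was -0.029 with quantile normalization, -0.070 with protein-coding genes rescaled and -0.47 without code X414. S100a8 was -0.69 with the fixed code block and without the libraries whose codes occur in 1 tissue. Without code X414, Krt36 was 0.14, Dpep1 -0.36 and Fabp2 -0.22. With 1 library left out, the interaction ran from -0.44 to 0.60 for S100a8, -1.22 to 0.30 for Krt36, -0.24 to 1.55 for Spock2, -0.18 to 0.95 for Dpep1 and -0.68 to 0.64 for Aqp8. Unknown depth limits what can be said of genes with low values.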

Other observations

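Cytosolic ribosomal proteins, which build the translation machinery, had interactions above 0 in 28 of 28 measured genes, beside 51.2% of all genes (median 0.24). The median difference was -0.03 in flox, where 2 fell (19.7% of all genes did), and 0.23 in ΔIEC, where 6 rose (13.9% did). These counts turned with the scaling: 17 and 18 rose with quantile normalization (medians 0.41 and 0.43) and 15 and 22 with protein-coding genes rescaled, and none fell. Of all 16970 genes, 3091 and 2756 rose with quantile normalization and 6254 and 4320 with protein-coding genes rescaled. The median interaction stayed between 0.20 and 0.30 with any library left out, but was 0.05 with 19 above 0 under quantile normalization. These genes have many processed copies in the genome, so their values are uncertain. General epithelial genes fell in 13 of 15 members in flox and 7 in ΔIEC (medians -0.93 and -0.46), beside 19.7% and 15.5% of all genes. Their 15 interactions were above 0, with a median between 0.30 and 0.56 with any library left out. Glycolysis genes had 16 of 16 interactions above 0 (median 0.28, 0.15 without DA2, 0.43 without FT3 and 0.12 with quantile normalization). There were 6 falls in flox and 4 in ΔIEC, beside the same 19.7% and 15.5%, and 1 rise in each. With protein-coding genes rescaled there were 4 falls and 4 rises in flox and 2 and 4 in ΔIEC. None of these genes was called in the interaction by limma.

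Of all genes, 16.6% rose and 19.7% fell in flox, and 13.9% rose and 15.5% fell in ΔIEC. Beside these shares, neutrophil genes rose in 13 of 14 members in each genotype, with medians of 2.38 and 2.33. Matrix metalloproteinases rose in 12 of 13 members in flox and 11 in ΔIEC, with medians of 2.46 and 2.31. Monocyte and macrophage genes rose in 5 of 16 members in flox and 3 in ΔIEC. Their median interaction of -0.44 was -0.98 without DA1 and -0.09 without DA3. Enteroendocrine genes fell in 10 of 12 members in flox and 9 in ΔIEC. Circadian clock genes fell in 6 of 15 members in each genotype. The median interaction of smooth muscle genes was 0.24 and ran from -0.40 without FT3 to 1.14 without FA2.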
